A study of Mus musculus with 2 samples.

Results

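The retinoic acid pathway genes described here are the nuclear receptors *Rara*, *Rarb* and *Rarg*, the binding and uptake proteins *Crabp1*, *Crabp2* and *Stra6*, the enzymes *Aldh1a2* and *Dhrs3* of retinoic acid synthesis and its reversal, and the breakdown enzyme *Cyp26a1*. These 9 genes were listed by name, and every probe set whose only annotated gene is a member was taken. They were represented by 10 of the 34958 single-gene probe sets on the array, which stand for 18194 genes. Of the 9 members, 8 had 1 probe set each, and *Rarg* had a pair.

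Total RNA of G9a-KO mouse embryonic stem cells (ESCs) and of WT ESCs was hybridized to Affymetrix mouse arrays, 1 array per group, to ask which genes differ when the histone H3K9 methyltransferase G9a is lost. The G9a-KO cells were made from TT2 ESCs with a disrupted allele and a loxP-flanked allele of G9a (gene *Ehmt2*), from which Cre removed exons 26 and 27 with the core of the catalytic SET domain. The WT cells are labelled as the TT2 line, an F1 line with C57BL/6 (maternal) and CBA (paternal) genomes. The labels give both samples the same text of 800 nM 4-hydroxytamoxifen for 48 h and 48 h without it, a medium with serum replacement, some calf serum and leukemia inhibitory factor, and do not say whether WT cells received the drug. The methods of the study describe G9a-KO cells as grown in serum medium on inactivated embryonic fibroblasts. The sources used here do not say what drives Cre or how many clones were used.

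Retinoic acid is made from retinol (vitamin A). Cells take retinol up from its plasma carrier through STRA6, oxidize it to retinaldehyde, and ALDH1A2 then oxidizes retinaldehyde to retinoic acid, while DHRS3 turns retinaldehyde back into retinol. CRABP2 hands retinoic acid to its nuclear receptors, CRABP1 holds it in the cytoplasm, and CYP26A1 hydroxylates it for removal. The receptors RARA, RARB and RARG pair with an RXR partner on direct repeats of a short half-site, recruit corepressors without the ligand and exchange them for coactivators with it. Retinoic acid drives ESCs out of pluripotency, and *Rarb*, *Cyp26a1*, *Crabp2*, *Stra6* and *Dhrs3* are known targets that it induces.

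The sequences shown first are promoters of members that carry the repeat on which the receptors sit. RefSeq promoter windows, from 250 bases before to 50 bases after an annotated start on assembly GRCm38.p6, were found for 8 of the 9 members (17 windows in all). *Crabp2* had no entry. A half-site was defined as AGGTCA or GGGTCA, or as AGTTCA or else GGTTCA, on either strand, and a direct repeat as any pair of them in the same orientation with 1, 2 or 5 bases between. In the windows of *Rarb* (chr14:16575427-16575726, minus strand) and *Cyp26a1* (chr19:37697558-37697857, plus strand), shown here 5′ to 3′ along the gene, capitals mark the direct repeat spaced by 5.

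*Rarb*: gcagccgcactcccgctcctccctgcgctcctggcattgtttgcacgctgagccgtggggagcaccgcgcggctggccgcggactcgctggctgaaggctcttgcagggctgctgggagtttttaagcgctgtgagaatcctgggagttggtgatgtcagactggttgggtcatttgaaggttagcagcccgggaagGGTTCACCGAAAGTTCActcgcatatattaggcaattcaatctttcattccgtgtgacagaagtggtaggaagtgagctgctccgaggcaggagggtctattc
*Cyp26a1*: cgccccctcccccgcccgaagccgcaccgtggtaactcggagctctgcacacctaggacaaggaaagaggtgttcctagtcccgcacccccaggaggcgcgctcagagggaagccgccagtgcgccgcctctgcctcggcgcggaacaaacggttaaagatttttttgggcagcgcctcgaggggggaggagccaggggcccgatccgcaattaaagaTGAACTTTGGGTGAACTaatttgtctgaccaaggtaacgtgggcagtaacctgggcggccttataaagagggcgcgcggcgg

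The *Rarb* repeat lay from 53 to 37 bases before the start and ran in the direction of the gene. The *Cyp26a1* repeat lay from 32 to 16 bases before the start, on the opposite strand. Read along the strand of the repeat, with the half-sites as the first and last 6 bases and all bases of the repeat in capitals, the copies were as follows.

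*Rarb* repeat: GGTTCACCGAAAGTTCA
*Cyp26a1* repeat: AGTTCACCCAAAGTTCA

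This repeat was present in 2 of the 17 member windows, against 32 of all 32851 windows (0.0974%). The motif was chosen for the receptors, and *Rarb* and *Cyp26a1* are known targets of retinoic acid. Matches in them could be foreseen, so the contrast with all windows is not an independent result. Repeats spaced by 1 base (0.222% of all windows) or 2 bases (0.268%) were found in 0 member windows. Single half-sites were present in 6 member windows, which include both windows with the repeat, and in 43.7% of all windows. The E-box CACGTG, the letters bound by MAX, was found in 2 member windows. These belong to neighbouring starts of *Rara* and hold the same E-box, and 7.15% of all windows hold this motif. A match is a description of the letters and does not show binding. On the arrays, *Rarb* and *Cyp26a1* differed by -0.29 and -0.43 (G9a-KO minus WT, log2), and *Rara* by -0.08.

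**Figure D1:**
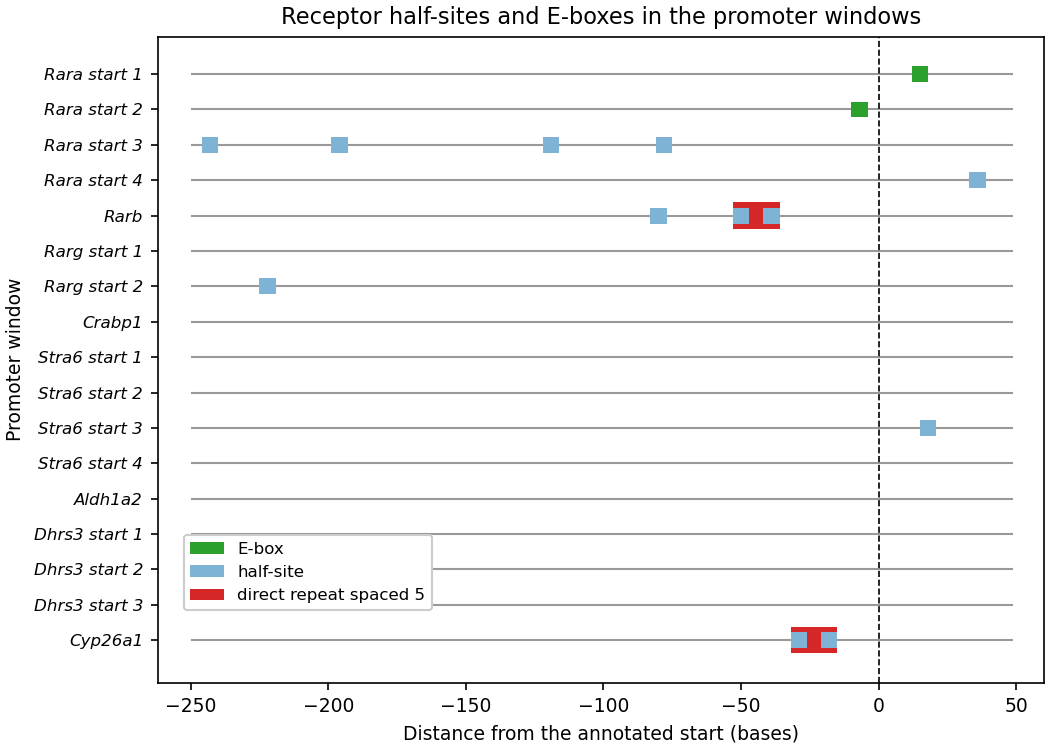
Position of receptor half-sites (blue), the direct repeat spaced by 5 (red) and the E-box (green) in the 17 promoter windows of 8 members, with distance from the annotated start in bases on the horizontal axis and 1 row per window. The repeat lies within the last 53 bases before the start of *Rarb* and of *Cyp26a1*, and the remaining 15 windows hold no repeat.

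Member windows held from 5 (3 of the 4 *Stra6* windows and 1 of *Rara*) to 50 CG dinucleotides (*Aldh1a2*), with a median of 10, against a median of 7 over all windows. Members with several annotated starts count once per window here, and some of their windows overlap. *Crabp1*, *Stra6* and *Aldh1a2* all lie on chromosome 9, and their differences on the arrays were -0.25, 0.16 and -0.96.

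Of the 9 genes, 7 were lower in G9a-KO ESCs than in WT ESCs by the probe set with the highest mean, where 46.6% of all genes were. *Crabp2*, *Rarg*, *Aldh1a2* and *Cyp26a1* were past 1.3-fold, the threshold of the study for this pair, and *Dhrs3* was past it in the other direction. Levels below are log2 values that take the 75th percentile of the same array as 0, and each difference is the G9a-KO level minus the WT level. Each group had a single array, so that replicates cannot be compared and no difference was tested. As a measure of the spread of hybridization alone, the 18 hybridization control probe sets differed by -0.16 to 0.21 (SD 0.11). These controls do not hold the spread between cultures, RNA samples or labelling reactions, so the full technical spread is not known. The robust SD over all probe sets, which also holds any difference between the cells, was 0.32. The median over all probe sets (array median) was -2.13 for G9a-KO and -2.24 for WT, and values near or below it are dim, so that folds against them depend on the background.

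*Crabp2*, which encodes the carrier that delivers retinoic acid to the receptors, had the largest difference of the members. Its level (probe set 1451191_at) was -2.34 in G9a-KO ESCs and -0.41 in WT ESCs, a difference of -1.93 (3.80-fold lower in G9a-KO), and it ranked 75th from the lowest of 18194 genes. It was above the array median in WT and below it in G9a-KO, so that the fold is not exact. Probe sets with a like mean over both arrays, whatever their level on each, had a robust SD of 0.43.

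*Crabp1*, the related cytoplasmic binding protein, was bright on both arrays. Its level was 0.83 in G9a-KO ESCs and 1.08 in WT ESCs, a difference of -0.25 that did not pass 1.3-fold. The difference of *Crabp2* minus that of *Crabp1* was -1.67 on the log2 scale. *Stra6*, the membrane receptor for the retinol carrier, was dim on both arrays, with -2.15 in G9a-KO ESCs and -2.31 in WT ESCs (difference 0.16).

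Of the receptors, *Rarg* differed most. Its brighter probe set (1419415_a_at) had a level of -0.49 in G9a-KO ESCs and 0.58 in WT ESCs, a difference of -1.08 (2.11-fold lower). Its dimmer probe set (1419416_a_at) had -1.76 in G9a-KO ESCs and -1.67 in WT ESCs, a difference of -0.09. The size of the *Rarg* difference therefore depended on the probe set, although both were above both array medians and both differences were negative. The robust SD at these levels was 0.59 for the brighter and 0.35 for the dimmer probe set. The sources used here do not place these probe sets on the *Rarg* transcripts.

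*Rara* was nearly level between the arrays, with -0.97 in G9a-KO ESCs and -0.89 in WT ESCs (difference -0.08, below the SD of the hybridization controls). *Rarb*, the receptor gene that retinoic acid itself induces, was below both array medians. Its level was -2.90 in G9a-KO ESCs and -2.61 in WT ESCs, a difference of -0.29 that did not pass 1.3-fold. The robust SD of probe sets at that level was 0.29, the same as the size of this difference.

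*Aldh1a2*, the retinaldehyde dehydrogenase that makes most retinoic acid in the early embryo, had a level (1422789_at) of -2.88 in G9a-KO ESCs and -1.93 in WT ESCs. The difference was -0.96 (1.94-fold lower), ranking 754th from the lowest of all genes, and only the WT level was above its array median. *Dhrs3*, the retinaldehyde reductase that works against synthesis, was the member past 1.3-fold in the opposite direction. Its level (1448390_a_at) was -2.20 in G9a-KO ESCs and -2.90 in WT ESCs, a difference of 0.71 (1.63-fold higher), but both values were below the median of their arrays. The robust SD at these levels was 0.28 for *Aldh1a2* and 0.29 for *Dhrs3*. *Cyp26a1*, the hydroxylase that clears retinoic acid, was at a level (1419430_at) of -1.24 in G9a-KO ESCs and -0.81 in WT ESCs. Its difference of -0.43 (1.35-fold lower) was close to the 1.3-fold threshold (0.38 on the log2 scale) and below the robust SD of 0.46 at its level.

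**Figure D2:**
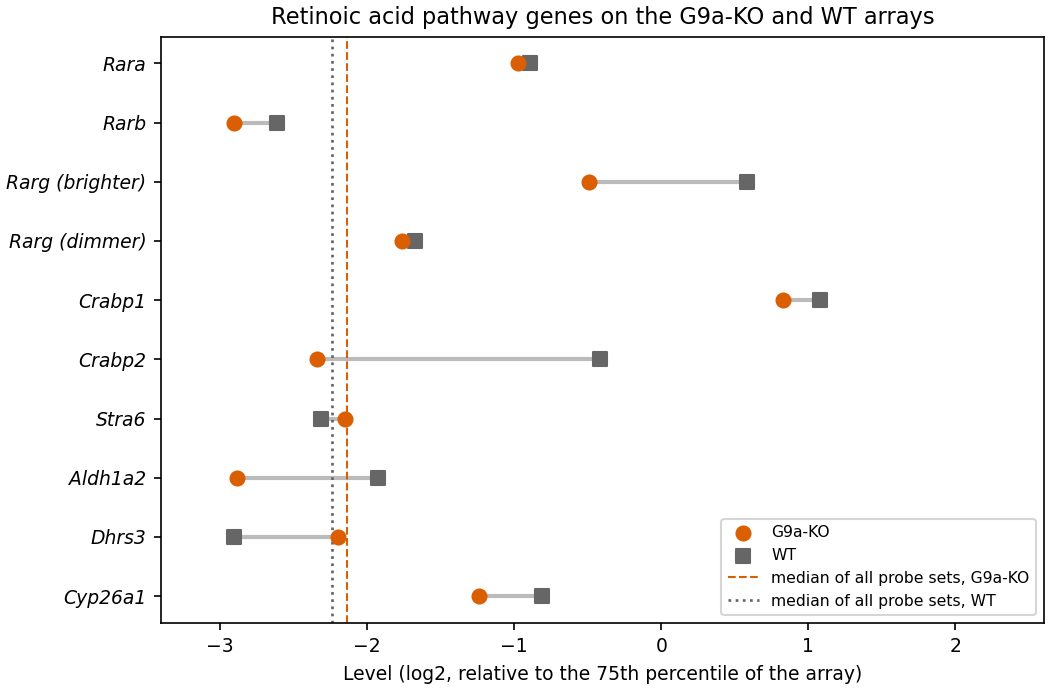
Level of each member probe set (horizontal axis, log2, with the 75th percentile of the array as 0) on the G9a-KO array (orange circles) and the WT array (grey squares), 1 point per array, with the array medians as vertical lines. *Crabp2*, the brighter *Rarg* probe set and *Aldh1a2* have the longest distances between the points, with G9a-KO on the left, while *Dhrs3* and *Stra6* have G9a-KO on the right.

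By the rule of the study that 1 probe set past the fold is enough, 4 of the 9 members were over 1.3-fold lower in G9a-KO, where 22.0% of all genes were, and 1 was over 1.3-fold higher, where 24.6% of all genes were. Over 2-fold, 2 members (*Crabp2* and *Rarg*) were lower, against 5.25% of all genes, and 0 were higher, against 6.23% of all genes. Since all but 1 member had a single probe set and many other genes had several, the same counts were made over probe sets. Of the 10 member probe sets, 4 were over 1.3-fold lower (15.4% of all single-gene probe sets) and 1 over 1.3-fold higher (17.9%), and 2 were over 2-fold lower (3.32%) and 0 over 2-fold higher (4.16%). The median difference of the members was -0.29, against 0.04 over all genes. These are counts over few genes on a single pair of arrays and were not tested. The members were chosen with earlier results of these data known, so the shares over all genes are not an independent comparison. Every scaling of the arrays tried kept 8 of the 10 probe sets lower in G9a-KO, while the share of all single-gene probe sets that were lower was 44.7% with the 75th percentile shift and ran from 48.8% to 56.3% under the other scalings. *Aldh1a2* passed 2-fold under each of the 4 other scalings, and *Rarb* passed 1.3-fold under 3 of them, as the probe sets moved by -0.11 to 0.03.

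**Figure D3:**
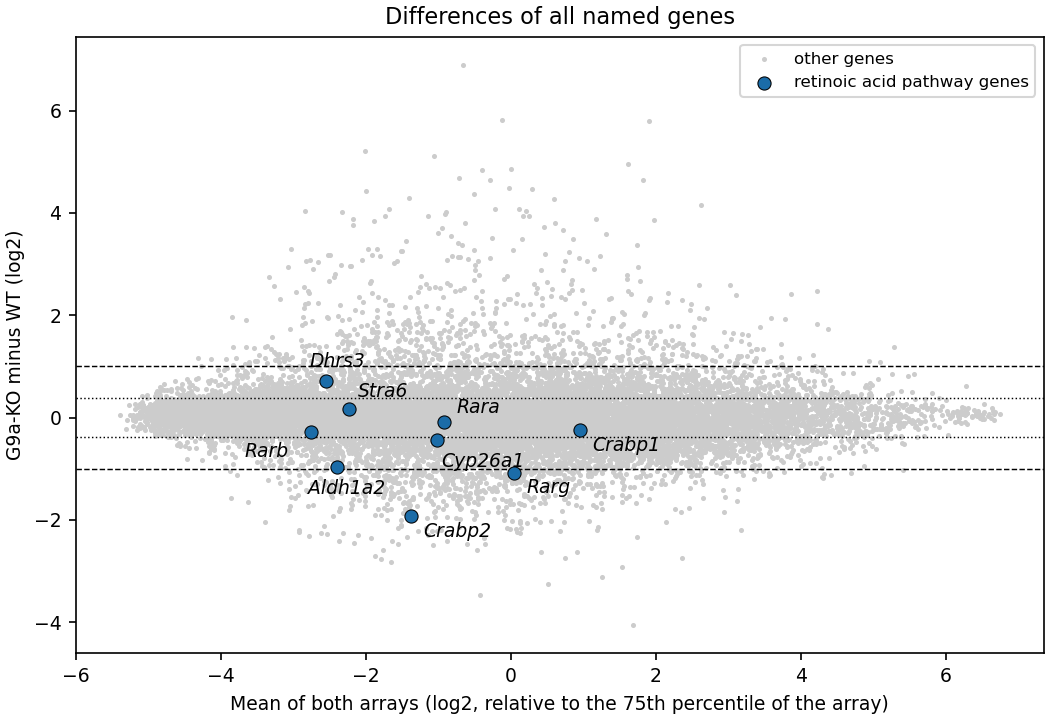
G9a-KO minus WT (vertical axis, log2) plotted over the average level on the 2 arrays (horizontal axis, log2, 75th percentile as 0) for 18194 genes, with members in blue, dotted lines at 1.3-fold and dashed lines at 2-fold. *Crabp2* (-1.93) and *Rarg* (-1.08) lie below the lower dashed line and *Aldh1a2* (-0.96) just above it.

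**Figure D4:**
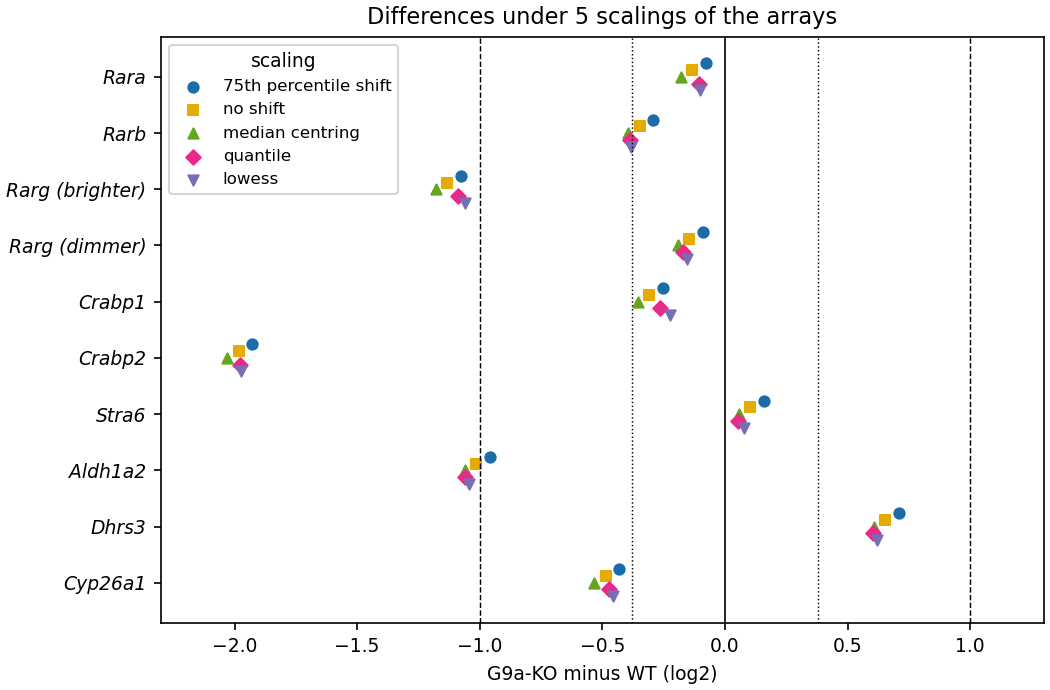
G9a-KO minus WT (horizontal axis, log2) of the 10 member probe sets under 5 scalings of the arrays (symbols), with dotted lines at 1.3-fold and dashed lines at 2-fold. Each probe set keeps its side of 0 under all 5, *Crabp2* running from -2.03 to -1.93 and *Dhrs3* from 0.60 to 0.71.

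Markers of other cells differed on the same arrays. The marker lists and the pathway lists after them are counted by the probe set with the highest mean, for which 17.4% of all genes were over 1.3-fold higher and 17.2% over 1.3-fold lower. The marker genes named here were chosen after their values were seen. Of 24 markers of primitive endoderm, a lineage that retinoic acid can induce from embryonal carcinoma cells, 20 were over 1.3-fold higher in G9a-KO and 0 lower, with a median of 2.56. Their summed linear signal was 27537 in G9a-KO ESCs and 4352 in WT ESCs, and 7 of them were below the median in WT and 0 in G9a-KO. Of 22 measured fibroblast markers, 6 were higher and 2 lower (summed signal 5085 in G9a-KO ESCs and 3925 in WT ESCs). In this list *Col5a2* (8.32-fold), *Timp3* (3.14-fold) and *Fn1* (3.05-fold) were higher and *Fstl1* was 3.16-fold lower, and the fibroblast collagens *Col1a1* and *Col3a1* were among its 10 genes below the median on both arrays. Of 15 measured trophoblast markers, 9 were higher and 1 lower (4670 in G9a-KO ESCs and 2878 in WT ESCs). Of 20 ESC markers, 4 were higher and 6 lower (54082 in G9a-KO ESCs and 59115 in WT ESCs), and *Pou5f1*, *Sox2* and *Nanog* were bright on both arrays and differed by -0.46, -0.15 and 0.21. The largest differences in the ESC list were those of *Lin28a* (-1.29), *Klf2* (-1.14), *Klf5* (1.38) and *Tbx3* (1.17), followed by *Tfcp2l1* (1.14) and *Zfp42* (-0.79). The part of other cell types in the differences of the pathway genes was not tested, and fewer cells that express a gene cannot be told apart from less of its RNA per cell. *Ehmt2* itself was at 0.51 in G9a-KO ESCs and 2.05 in WT ESCs by its brighter probe set (2.90-fold lower). Its dimmer probe set was at -2.07 in G9a-KO ESCs and -2.27 in WT ESCs, and whether either lies in the deleted exons is not given.

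The RXR partners, without which the receptors bind these repeats poorly, went both ways. *Rxrb* had a level of 1.06 in G9a-KO ESCs and 1.62 in WT ESCs (1.47-fold lower), and *Rxrg* had -2.18 in G9a-KO ESCs and -1.71 in WT ESCs (1.38-fold lower). *Rxra* was 1.44-fold higher by its brightest probe set, at 0.15 in G9a-KO ESCs and -0.37 in WT ESCs. Its other probe sets differed by -0.07 and 0.02, so that its difference rests on that probe set.

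Among the other genes of retinoid binding, transport and uptake, 11 of 12 were measured, and 3 were over 1.3-fold higher and 1 lower (2 under each other scaling), with a median of 0.14. *Fabp5*, a fatty acid carrier that also binds retinoic acid, was at 4.05 in G9a-KO ESCs and 2.71 in WT ESCs (2.54-fold higher), and its second probe set gave 1.39 on the log2 scale. *Lpl*, the lipoprotein lipase that lets cells take up retinyl esters, was 2.13-fold higher, with a second probe set at the same difference. *Ttr*, which carries the retinol-binding protein in plasma and is also in the endoderm list, was 1.77-fold higher by its brightest probe set, and its 3 dimmer probe sets, with WT levels below the median, were 2.58-fold to 9.42-fold higher. *Rbp7*, a cellular retinol-binding protein, was the member of this list that was lower (-1.26 in G9a-KO ESCs and -0.56 in WT ESCs, 1.63-fold).

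Of 22 measured enzymes of retinoid metabolism other than the members, 8 were over 1.3-fold higher, 2 were lower and 12 were within the threshold, with a median of 0.18. Below the median on both arrays were 10 of the 22. These include *Rdh7* and *Bco2* among the higher and *Rdh12* among the lower, named here after their values were seen. *Retsat*, which saturates retinol to dihydroretinol, had the largest difference, at 1.26 in G9a-KO ESCs and -0.93 in WT ESCs (4.59-fold higher, and 1.60 on the log2 scale by its other probe set). *Adh1* and *Adh4*, alcohol dehydrogenases that can oxidize retinol, were 2.08-fold and 2.25-fold higher, but from WT values below the median. *Dhrs4*, a reductase of retinaldehyde and other carbonyls, was at -0.36 in G9a-KO ESCs and 1.31 in WT ESCs (3.18-fold lower), and -1.29 by its other probe set. *Rdh10*, the main retinol dehydrogenase of the embryo, named here after its values were seen, was higher by 0.62 and 0.79. The other breakdown enzyme measured, *Cyp26b1*, also named after its values were seen, differed by 0.22. Median centring, quantile normalization and lowess correction each left 6 rather than 8 of these enzymes higher.

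Of 13 measured receptor cofactors, 6 were over 1.3-fold lower and 1 over 1.3-fold higher (median -0.31). *Med1*, a Mediator subunit that binds nuclear receptors, was at 0.77 in G9a-KO ESCs and 2.29 in WT ESCs (2.88-fold lower). Its other probe sets gave -1.45, -0.77, -0.59, -0.58, 0.03 and 1.46. Most were thus lower, but its direction depends on the probe set. *Nsd1*, a histone methyltransferase that binds nuclear receptors, was 2.43-fold lower by its brightest probe set, and 3 dimmer ones gave -0.53, 0.09 and 0.32. The acetyltransferase *Ep300* differed by -0.59 by its single probe set, and the coactivator *Ncoa2* was 1.49-fold lower by its brightest but 0.70 higher by another.

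Genes known as targets of retinoic acid went both ways. Of 31 measured, 8 were over 1.3-fold higher, 3 were lower and 20 were within the threshold, with a median of 0.12. The median was 0.01 to 0.06 under the other scalings, and 6 were higher under median centring. *Lamb1*, a laminin chain that retinoic acid induces in embryonal carcinoma cells and that is also in the endoderm list, was at 4.70 in G9a-KO ESCs and 0.54 in WT ESCs (17.9-fold higher). The homeobox genes *Meis1* and *Meis2* were 2.58-fold and 2.66-fold higher, with WT levels below the median (-3.07 and -2.95). The other *Meis1* probe sets, below the median on both arrays, differed by 0.20 and -0.07, and the other *Meis2* probe sets by -0.21 to 1.05. *Stra8*, which retinoic acid induces in germ cells before meiosis, was at 1.71 in G9a-KO ESCs and 2.84 in WT ESCs (2.20-fold lower). The anterior *Hoxa* and *Hoxb* genes, which respond early to retinoic acid, were measured for 9 of 10 members and ran from -0.21 to 0.34. None of these 9 passed 1.3-fold by the probe set with the highest mean, and 5 were below the median on both arrays. A dimmer *Hoxa3* probe set, also below both array medians, was 1.32-fold lower (-0.40).

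**Figure D5:**
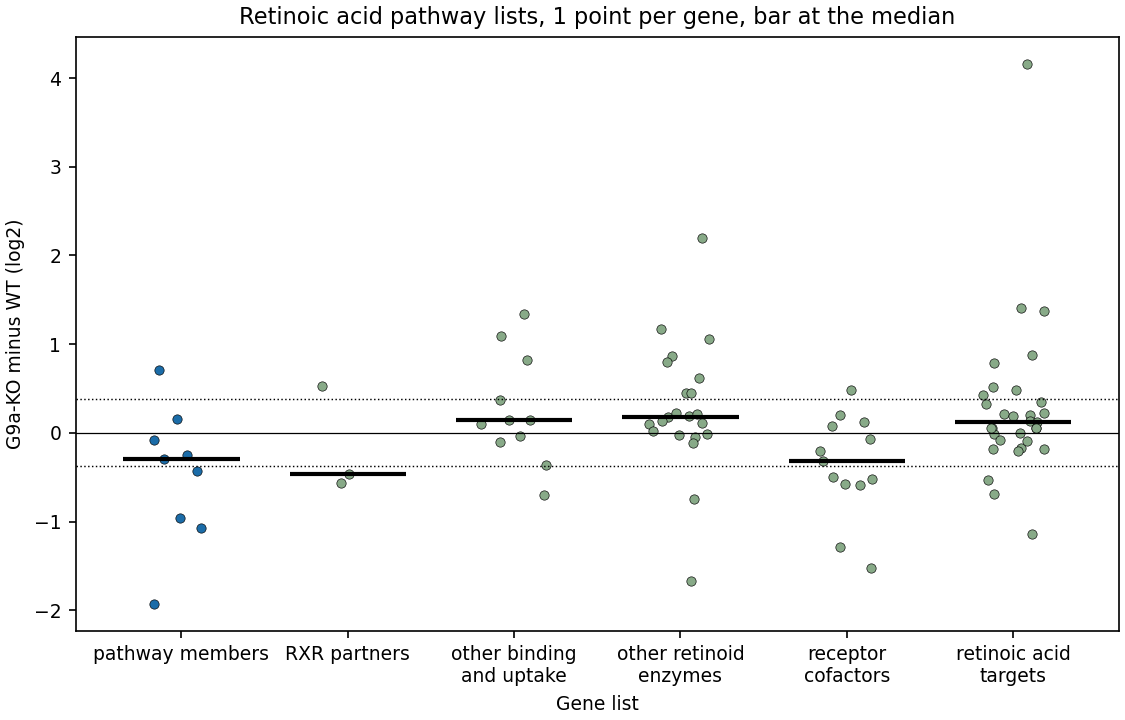
G9a-KO minus WT (vertical axis, log2) of the 9 members (blue) and of 5 further lists of the pathway (green), 1 point per gene by the probe set with the highest mean, with bars at the median and dotted lines at 1.3-fold. The medians of the members (-0.29), the RXR partners (-0.47) and the receptor cofactors (-0.31) lie below 0, and those of the other binding genes (0.14), enzymes (0.18) and targets (0.12) above it.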

How the data were processed

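Values of the G9a-KO array and the WT array were analysed. The authors deposited log2 signals that they made with RMA, and the submitters' processing notes name R 3.2.1. RMA corrects the background, equalizes probe intensities between arrays and summarises probe sets, so that differences in total RNA per cell are lost. Its package is not given in the sources used. Following the methods of the study, each array (45101 probe sets) was shifted so that its 75th percentile was 0, and the WT value was taken from the G9a-KO value of each probe set. Symbols came from GEO's platform annotation (34958 probe sets with 1 symbol, 932 with several, 9211 unnamed here), and 34754 matched the RefSeq gene table of GRCm38.p6 by gene ID. For gene lists the probe set with the highest mean stood for a gene, and the robust SD at a level is that of the 1000 probe sets nearest in mean. From each pathway list up to 4 genes were named, those above at least 1 of the array medians with the largest absolute difference, beside all members and *Ehmt2*. Members and lists were chosen with earlier results of these data known. The number of arrays limits the precision, and no test was run. The steps were tested on simulated data (Python 3.11.15, numpy 2.4.6, pandas 2.3.3, statsmodels 0.14.6). Alternatives were other scalings, filters on dim or unspecific probe sets and other gene rules. Identities between the encoded proteins were not analysed here.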

Additional observations from a re-analysis of the deposited data

How the results depend on the processing

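With 1 array per group no array could be left out. No paired analysis was possible because each group has a single array. Under no shift, median centring, quantile normalization and lowess correction (span 0.3), all 40 values of single member probe sets kept their sign and moved by less than the SD of the hybridization controls, and all 24 counts and medians stayed within 1.5 times the count, or within that SD for the median. This tolerance admits 3 rather than 2 members over 2-fold lower (all 4 scalings) and 5 rather than 4 over 1.3-fold lower (3 scalings). No shift and median centring move every probe set by the same amount (-0.06 and -0.10). The deposited values were already equalized between the arrays, so rescaling could move them little. The agreement between scalings was thus largely set in advance and says nothing of the spread between replicates. Under filters and other gene rules, 15 of 21 counts and medians stayed within the tolerance, and the other 6 follow. With probe sets above the median of at least 1 array only, 6 members remained, 0 were over 1.3-fold higher, since *Dhrs3* was left out, and the member median was -0.69. With probe sets averaged within genes, 1 member (*Crabp2*) was over 2-fold lower. With probe sets above the median on both arrays, chosen after the data were seen, 4 members remained, of which 2 were over 1.3-fold lower, 1 over 2-fold lower and 0 over 1.3-fold higher. Over all genes, the share of higher among those past 1.3-fold was 50.4% with the 75th percentile shift and 36.9% (2365 higher, 4050 lower) under median centring, which lowers every difference by 0.10. Signal over background limits the reading of *Rarb*, *Stra6* and *Dhrs3*, dim on both arrays, and of *Aldh1a2* and *Crabp2*, whose folds rest on dim G9a-KO values (-2.88 and -2.34).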

Other observations

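Genes sharing promoter letters with the members were read after the windows had been searched. The direct repeat spaced by 5 was held by windows of 11 measured genes, *Rarb* and *Cyp26a1* among them, of which 2 were over 1.3-fold higher and 2 lower in G9a-KO (median -0.11). Of 37 measured genes with a repeat spaced by 1 base, 3 were higher and 4 lower (median 0.00528), and of 14 with a repeat spaced by 2 bases, 1 was higher and 3 lower (median -0.01). The E-box was held by windows of 1479 measured genes, of which 288 (19.5%) were higher and 311 (21.0%) lower (median 0.01). Of all 14453 measured genes with a window, the higher ones were 17.2% and the lower ones 17.6% (median 0.03).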
